A study of Mus musculus with 12 samples.

Results

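Genes of heme synthesis, heme breakdown, iron storage and iron uptake were followed in mouse liver after bulaquine. The 8 genes chosen were Alad, Fech and Urod (heme synthesis), Hmox1 and Blvrb (heme breakdown), Fth1 and Ftl1 (iron storage) and Tfrc (iron uptake). Every spot annotated to these symbols was taken if its corrected intensity was over 0 in both dyes on at least 10 of the 12 arrays. That held for 12 of 13 annotated spots, out of 17322 spots tested and 23040 on the array. The 12 were 1 spot each of Alad, Hmox1 and Blvrb, 2 of Fech, 5 of Ftl1 and 2 of Tfrc. Urod and Fth1 were not analysed here, because no spot of the annotation used listed them.

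Liver RNA from mice given bulaquine, an antimalarial aminoquinoline and pro-drug of primaquine, was set against liver RNA from vehicle-treated mice. Spotted dual-dye arrays were hybridised with RNA taken 6 h, 12 h and 24 h after dosing, 4 per time, and the sample titles place the study under liver toxicity. Bulaquine and vehicle RNA shared every array, with the drug in Cy5 on arrays F1 and F2 and in Cy3 on arrays R1 and R2. Strain, sex, age and dose were not stated, nor whether arrays shared RNA or vehicle mice, so the spread behind each p-value is that between arrays and may be technical. The tissue was whole liver, where fewer cells of a type and less RNA per cell cannot be told apart.

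Heme is built from simple precursors in a chain of enzymes, and Fech closes the chain by placing iron into protoporphyrin. Liver uses much of its heme in cytochromes P450 and also breaks heme down: heme oxygenase, encoded by Hmox1, opens the ring and frees the iron, and biliverdin reductases then act on the product. Freed or imported iron is stored in ferritin shells made of the Fth1 and Ftl1 chains, while Tfrc brings in iron bound to transferrin. Hmox1 is a common marker of oxidative and heme stress, and aminoquinolines related to primaquine are known for oxidative damage to red cells.

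Gene names rest on an inferred order of the array's blocks, since numbers as deposited do not match spots to annotation. With the blocks reordered the 5 Ftl1 spots stood between the 98.7th and the 99.3rd percentile of brightness, against the 7.78th to the 66.2nd under the deposited numbers. Alad stood at the 86.2nd, Blvrb at the 80.7th and Hmox1 at the 67.5th percentile, against the 44.0th, the 5.71st and the 67.9th. Fech spots 1702 and 4883 stood at percentiles 82.4 and 71.5, against 59.3 and 16.7. Tfrc spot 6428 stood at 86.8 against 63.4, while Tfrc spots 9774 and 13538 went the other way, at 32.4 and 16.7 against 69.4 and 41.9. The liver markers Alb, Apoa1, Ttr and Ass1, which were the 4 of 9 hepatocyte markers measured, stood at or above the 96.2nd percentile. The median signal-to-noise score of an array lay between 0.761 and 1.42 for Cy3 and between 0.467 and 1.34 for Cy5, with 9.66% to 24.5% of spots at 0. Standard errors of fitted log2 ratios had a median of 0.31 at each time, and the number of arrays limits the precision.

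None of the 12 spots passed the test at 6 h, 12 h or 24 h (limma, Benjamini-Hochberg adjusted p under 0.05 over all 17322 spots). The share of all spots that passed was 0.0346% at 6 h, 0.254% at 12 h and 0.225% at 24 h. At an unadjusted p under 0.05 there were 4 of the 12 at 6 h, all of them Ftl1 and all lower, where 5.59% of all spots reached that level and 2.98% did so as lower. At 12 h there were 0 of 12, against 7.56% of all spots, and at 24 h 1 of 12, Alad, against 9.83% of all spots and 4.99% as lower. The median fitted log2 ratio of the 12 spots, bulaquine over vehicle, was -0.24 at 6 h with 11 of 12 below 0, beside a median of 0.00 over all spots. It was 0.03 at 12 h (4 of 12 below 0) and -0.05 at 24 h (7 of 12 below 0), beside -0.01 and 0.01 over all spots. These counts weight Ftl1 by its 5 spots, which are not independent readings of the tissue.

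The fit gives each spot a dye effect, the part of its Cy5 over Cy3 ratio that does not turn with the samples. It passed the test for 8 of the 12 spots, 7 brighter in Cy3 and 1, a Tfrc spot, brighter in Cy5, where 18.5% of all spots passed. In the values below, arrays F and R of 1 time therefore often stand on opposite sides of 0 for a gene whose fitted ratio is near 0.

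**Figure D1:**
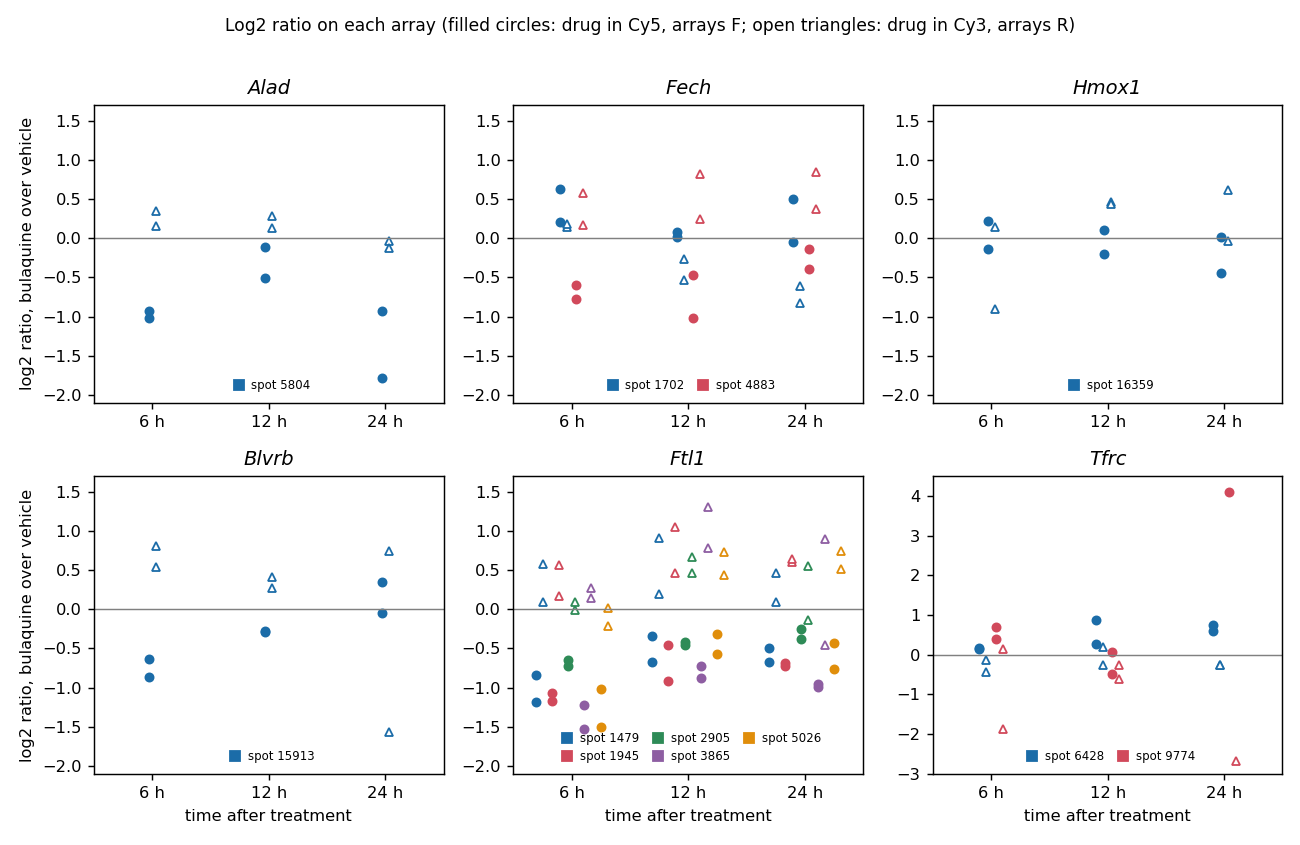
Log2 ratio of bulaquine over vehicle (vertical axis) on each array at 6 h, 12 h and 24 h for the 12 tested spots, 1 panel a gene and 1 colour a spot. Filled circles are arrays with the drug in Cy5 (F) and open triangles arrays with the drug in Cy3 (R), and the Tfrc panel has a wider axis. The Ftl1 circles lie below 0 at every time, and at 6 h the Ftl1 triangles lie between -0.21 and 0.57.

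Alad encodes delta-aminolevulinate dehydratase, the second enzyme of heme synthesis. Its log2 ratio was -1.78, -0.93, -0.04 and -0.12 on arrays F1, F2, R1 and R2 of 24 h. At 6 h the ratios were -1.03, -0.94, 0.34 and 0.16, and at 12 h -0.11, -0.51, 0.12 and 0.28, in the same order of arrays. All 4 arrays of 24 h lay below 0, which held for 8.16% of the spots measured on those 4 arrays, while 6 h and 12 h each had 2 arrays on either side. With the dye effect of -0.50 taken off, the 24 h arrays ran from -1.28 to -0.42 and the 6 h arrays from -0.52 to -0.16, all 8 below 0. The share of all spots for which that held was not counted, and the 8.16% is for ratios with the dye effect left in.

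The fitted ratio of Alad at 24 h was -0.72 (SE 0.17, 95% interval -1.11 to -0.33), or 1.64-fold lower, with an unadjusted p of 0.0022 and an adjusted p of 0.225 (limma). It was -0.36 at 6 h and -0.05 at 12 h, with adjusted p of 0.904 and 0.967. The difference between 24 h and 12 h was -0.66 (SE 0.25, adjusted p = 0.594). Without background correction the 24 h ratio was -0.50 and its adjusted p was 0.0285. The normalised log2 intensity of Alad at 24 h was 11.74 ± 0.99 after bulaquine and 12.46 ± 0.35 with vehicle (SD, n = 4 arrays each), and the ranges overlapped. Of the 6 levels over the 3 times, the 24 h drug level was the lowest, the other 5 lay between 12.46 and 13.00, and neighbours in that order differed by less than the larger of their SDs.

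Fech encodes ferrochelatase and was read on 2 spots that carry the same accession. At spot 1702 the log2 ratio was 0.21, 0.63, 0.14 and 0.18 at 6 h, 0.09, 0.02, -0.26 and -0.53 at 12 h, and 0.50, -0.05, -0.61 and -0.82 at 24 h (arrays F1, F2, R1, R2). At spot 4883, which was dimmer, it was -0.59, -0.78, 0.17 and 0.58 at 6 h, -1.02, -0.47, 0.82 and 0.25 at 12 h, and -0.39, -0.13, 0.38 and 0.84 at 24 h. All 4 arrays of 6 h lay above 0 at spot 1702, as they did for 5.21% of spots measured on those arrays, and at spot 4883 the F and R arrays lay on opposite sides of 0 at every time. With the dye effect of 0.28 taken off, spot 1702 read -0.07, 0.36, 0.41 and 0.46 on the same arrays of 6 h.

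Both Fech spots ran against each other over the 12 arrays (Pearson r = -0.68, and -0.27 without the dye effect), although they stand for the same gene. Their fitted ratios were 0.29 and -0.16 at 6 h, -0.17 and -0.11 at 12 h, and -0.24 and 0.18 at 24 h for spots 1702 and 4883 in that order, with SE of 0.15 and 0.16. The mean of the 2 spots gave 0.07, -0.14 and -0.03 at 6 h, 12 h and 24 h (SE 0.13 each). At spot 1702 the 24 h ratio stood 0.53 below the 6 h ratio (-0.53, SE 0.21, unadjusted p = 0.031, adjusted p = 0.616), and at spot 4883 the same difference was 0.33 (SE 0.22). The 2 spots thus gave opposite signs at 6 h and at 24 h.

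Hmox1 encodes the inducible heme oxygenase. Its log2 ratio was 0.22, -0.14, 0.14 and -0.90 at 6 h, -0.20, 0.10, 0.46 and 0.44 at 12 h, and -0.45, 0.02, -0.03 and 0.61 at 24 h (arrays F1, F2, R1, R2). Arrays stood on both sides of 0 at each time. The fitted ratio was -0.17 at 6 h (95% interval -0.66 to 0.32), 0.20 at 12 h (-0.29 to 0.69) and 0.04 at 24 h (-0.45 to 0.53), with adjusted p of 0.988, 0.876 and 0.979 (limma).

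Hmox1 was 1 of the 4 spots whose dye effect did not pass the test (-0.10), which does not show that it has none. The F and R arrays of Hmox1 averaged 0.04 and -0.38 at 6 h, -0.05 and 0.45 at 12 h, and -0.21 and 0.29 at 24 h. Its normalised log2 intensity was 10.17 ± 0.41 after bulaquine against 10.34 ± 0.32 with vehicle at 6 h, 10.33 ± 0.40 against 10.13 ± 0.28 at 12 h, and 10.35 ± 0.41 against 10.31 ± 0.54 at 24 h (SD, n = 4 arrays each). The 6 levels ran from 10.13 to 10.35, a range smaller than any of their SDs, so their order has no meaning beyond the spread. The highest interval end at any time was 0.69, at 12 h.

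Blvrb encodes biliverdin reductase B, a cytosolic reductase of biliverdin and flavins. Its log2 ratio was -0.87, -0.63, 0.54 and 0.81 at 6 h, -0.29, -0.28, 0.27 and 0.41 at 12 h, and -0.04, 0.35, 0.74 and -1.57 at 24 h (arrays F1, F2, R1, R2). At 6 h and 12 h the arrays split by dye, and at 24 h array R2 stood far below the others. The fitted ratio was -0.04, 0.03 and -0.13 at 6 h, 12 h and 24 h with an SE of 0.37, and its adjusted p was 0.999, 0.989 and 0.956. Without array R2 of 24 h the 24 h ratio was 0.50, with an adjusted p of 0.502. With all arrays kept it was 0.24 without background correction and 0.06 with loess within blocks, so the sign at 24 h changed with 1 array and with the processing.

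Ftl1 encodes the light chain of ferritin. At spot 5026, the brightest of its 5, the log2 ratio was -1.50, -1.02, -0.21 and 0.02 at 6 h, -0.57, -0.31, 0.74 and 0.43 at 12 h, and -0.76, -0.43, 0.51 and 0.75 at 24 h (arrays F1, F2, R1, R2). The F arrays lay below 0 at every time, and the R arrays were near 0 at 6 h and above it later. With the dye effect of -0.57 taken off, all 4 arrays of 6 h lay between -0.93 and -0.45, while those of 12 h ran from -0.14 to 0.26 and those of 24 h from -0.19 to 0.18. At this spot the 6 h arrays thus did not overlap those of the later times. At each of the other Ftl1 spots the 6 h range overlapped that of a later time. The share of all spots without such overlap was not counted.

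The fitted ratio of spot 5026 was -0.68 at 6 h (SE 0.13, 95% interval -0.96 to -0.39), or 1.60-fold lower, the 29th smallest of 17322 p-values there (unadjusted p = 0.00042, adjusted p = 0.253, limma). It was 0.07 at 12 h and 0.02 at 24 h. The differences from 6 h were 0.75 at 12 h (adjusted p = 0.359) and 0.69 at 24 h (adjusted p = 0.410). Without background correction the 6 h ratio was -0.63 with an adjusted p of 0.0255, and the difference of 24 h from 6 h was 0.75 with an adjusted p of 0.0469.

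The other 4 Ftl1 spots lay below 0 at 6 h as well, at -0.34 (spot 1479), -0.38 (spot 1945), -0.32 (spot 2905) and -0.59 (spot 3865). Of the 5 spots, 4 had an unadjusted p under 0.05 there, and none passed after adjustment. The 5 ratios ran from 0.02 to 0.12 at 12 h and from -0.38 to 0.02 at 24 h. Over the 12 arrays the 10 pairs of Ftl1 spots correlated with a Pearson r of 0.84 to 0.98 (median 0.89), and of 0.35 to 0.92 (median 0.54) without the dye effect, as a description over spots that share arrays and dyes.

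The mean of the 5 Ftl1 spots was -1.12, -1.06, 0.04 and 0.30 on arrays F1, F2, R1 and R2 of 6 h, and its fitted ratio was -0.46 (SE 0.12, unadjusted p = 0.0039, adjusted p = 0.631 over genes averaged in this way). At 12 h and 24 h the fitted mean was 0.06 and -0.12. The level of spot 5026 at 6 h was 15.72 ± 0.49 after bulaquine and 16.40 ± 0.26 with vehicle (log2 normalised intensity, SD, n = 4 arrays each). The drug levels ran from 15.26 to 16.15 and the vehicle levels from 16.13 to 16.75, so the ranges barely overlapped. At 12 h and 24 h the drug and vehicle levels differed by less than their SDs.

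Ferritin light chain has near-identical copies in the mouse genome, and a spot can bind transcripts of a copy, so which copy these values come from is uncertain. A spot annotated to the copy Ftl1-ps2 was bright too (96.3rd percentile) and read -0.21, -0.05 and -0.22 at 6 h, 12 h and 24 h. Kupffer cells, the macrophages of the liver, also store iron in ferritin. Of 12 Kupffer cell and macrophage markers 3 were measured, and all 3 lay below 0 at 6 h, Csf1r at -0.67, Mpeg1 at -0.84 and Lyz2 at -0.50, none with an adjusted p under 0.05. Their summed level at 6 h was 9037 to 11431 units after bulaquine and 10874 to 20498 units with vehicle. The other 9, among them Clec4f, Cd68 and Adgre1, were not analysed here. The part of these cells in the Ftl1 values was not tested.

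**Figure D2:**
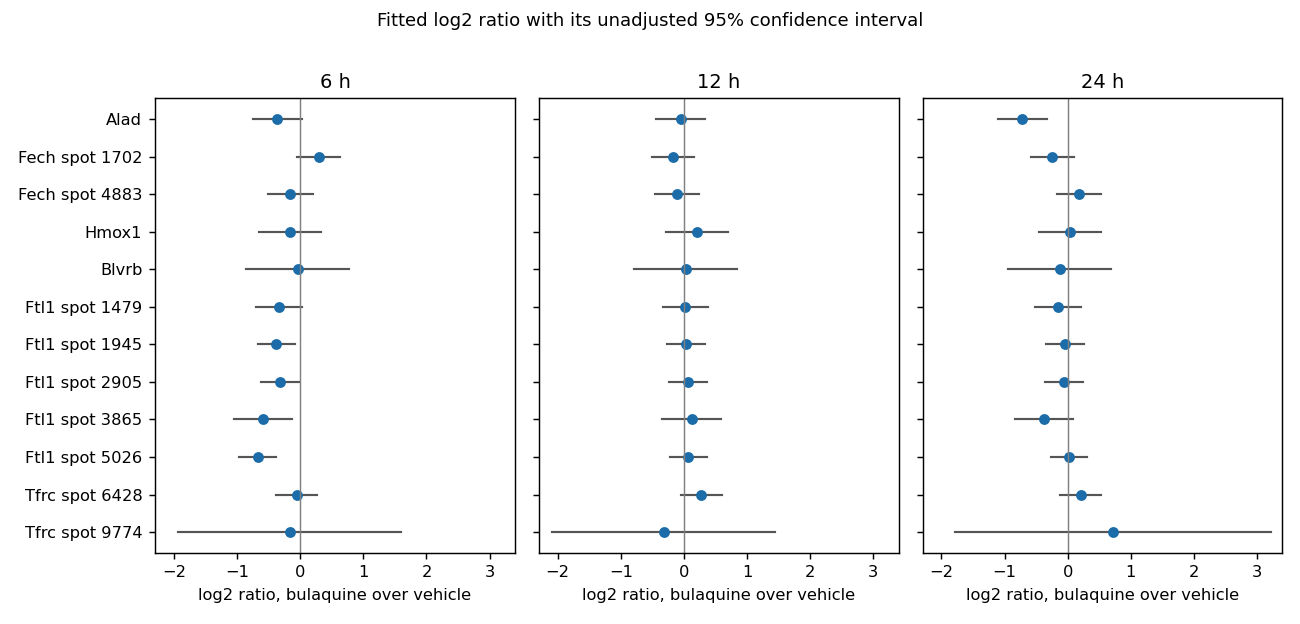
Fitted log2 ratio of bulaquine over vehicle (horizontal axis) for the 12 spots at 6 h, 12 h and 24 h, as points with unadjusted 95% intervals from limma. Intervals that lie wholly below 0 are those of 4 Ftl1 spots at 6 h and of Alad at 24 h, and the Tfrc spot 9774 has the widest.

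Tfrc encodes the transferrin receptor, whose mRNA is known to be stabilised when cell iron is low. At spot 6428, the brightest of its 3, the log2 ratio was 0.15, 0.17, -0.12 and -0.43 at 6 h, 0.26, 0.89, 0.19 and -0.26 at 12 h, and 0.74, 0.61, -0.27 and -0.26 at 24 h (arrays F1, F2, R1, R2). The F arrays stood above 0 throughout and the R arrays below it except for R1 of 12 h, opposite to Ftl1, and the dye effect was 0.33. The fitted ratio was -0.06 at 6 h, 0.27 at 12 h and 0.20 at 24 h (SE 0.14 each), with adjusted p of 0.999, 0.719 and 0.690 (limma). With the dye effect taken off, all 4 arrays of 24 h lay above 0, between 0.06 and 0.41, and the share of all spots for which that held was not counted.

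The other tested Tfrc spot, 9774, was just inside the rule with 10 arrays and was dim (32.4th percentile). Its ratio ran from -1.88 to 0.70 at 6 h and from -0.60 to 0.08 at 12 h, and the 2 arrays measured at 24 h read 4.11 and -2.68. Its SE was 0.76 at 6 h and 12 h and 1.07 at 24 h, and its intervals were the widest of the 12 spots. The third spot, 13538, was above 0 on 7 arrays and was left out by the rule. Its ratios were 0.39, -1.40 and 0.25 on the 3 arrays measured at 6 h, -0.45 and 0.82 on 2 at 12 h, and -2.81 and 0.07 on 2 at 24 h.

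**Figure D3:**
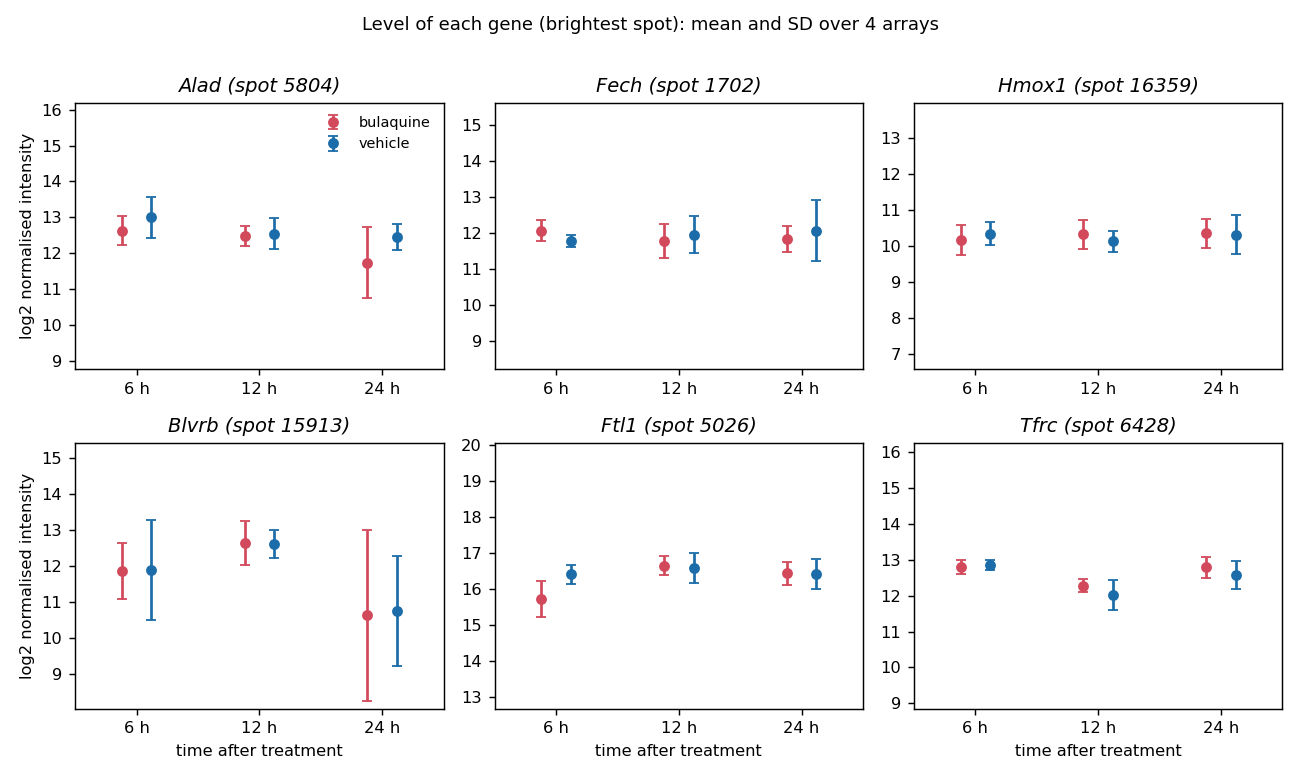
Normalised log2 intensity (vertical axis) of the brightest spot of each gene at 6 h, 12 h and 24 h, bulaquine in red left of vehicle in blue, as mean and SD over 4 arrays. Ftl1 at 6 h (15.72 and 16.40) and Alad at 24 h (11.74 and 12.46) show the widest gaps between drug and vehicle, and Blvrb the largest SDs.

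Fech at spot 1702 was 12.06 ± 0.30 after bulaquine and 11.77 ± 0.17 with vehicle at 6 h, 11.78 ± 0.47 and 11.95 ± 0.51 at 12 h, and 11.82 ± 0.36 and 12.06 ± 0.85 at 24 h. Tfrc at spot 6428 was 12.80 ± 0.19 after bulaquine and 12.86 ± 0.14 with vehicle at 6 h, 12.28 ± 0.17 and 12.01 ± 0.42 at 12 h, and 12.79 ± 0.28 and 12.58 ± 0.39 at 24 h (log2 normalised intensity, SD, n = 4 arrays each). Both drug and vehicle levels of Tfrc were lowest at 12 h, which is a difference between sets of arrays and not between treatments.

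The difference between times was tested for every spot. None of the 12 passed for 12 h against 6 h, 24 h against 6 h or 24 h against 12 h, where 0.185%, 0.0115% and 0.0346% of all spots did. At an unadjusted p under 0.05 there were 2, 2 and 1 of the 12, against 6.07%, 7.76% and 7.4% of all spots. The 2 for 12 h against 6 h were Ftl1 spots 5026 (0.75) and 3865 (0.71). The 2 for 24 h against 6 h were Ftl1 spot 5026 (0.69) and Fech spot 1702 (-0.53), and Alad (-0.66) was the 1 for 24 h against 12 h. These 3 differences share time points, and the Ftl1 values of 6 h enter both of the first pair. The joint test over the 3 times passed for none of the 12 spots, with Ftl1 spot 5026 at an adjusted p of 0.286 and Alad at 0.366.

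The 250 bases before the transcription start of Ftl1 and Alad are shown, as the 2 genes with the smallest p-values among those studied. Capitals mark 3 short motifs on either strand: CCAAT, known as the core of the sites of NF-Y, the E-box CACGTG, and GGGCGG, known from sites of Sp1. The sequences are from RefSeq on GRCm38.p6, both on the minus strand and written 5′ to 3′ in the direction of transcription, at chr7:45459887-45460136 for Ftl1 and chr4:62520064-62520313 for the first of 2 Alad start sites.
Ftl1: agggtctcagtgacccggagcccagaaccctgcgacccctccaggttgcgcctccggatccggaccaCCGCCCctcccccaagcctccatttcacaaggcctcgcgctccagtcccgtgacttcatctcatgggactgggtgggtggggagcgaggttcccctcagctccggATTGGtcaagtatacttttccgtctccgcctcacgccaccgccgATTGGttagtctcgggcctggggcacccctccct
Alad: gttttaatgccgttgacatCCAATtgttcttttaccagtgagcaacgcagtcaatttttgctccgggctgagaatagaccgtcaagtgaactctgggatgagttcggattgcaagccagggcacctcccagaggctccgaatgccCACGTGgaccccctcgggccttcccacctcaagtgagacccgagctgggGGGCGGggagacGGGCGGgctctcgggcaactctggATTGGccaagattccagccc
The Ftl1 window held 2 CCAAT and 1 GGGCGG match and the Alad window 2 CCAAT, 1 CACGTG and 2 GGGCGG matches. Among 32851 mouse windows of the same length, 33.8% held CCAAT, 32.7% held GGGCGG and 6.02% held CACGTG. The matches describe these letters and were not tested against the array values.

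Around the 6 measured genes, 74 genes of heme and iron handling were listed in 9 groups, and 43 of them were measured. None of the 43 passed at 6 h, 12 h or 24 h (limma, adjusted p under 0.05), the smallest adjusted p being 0.253, 0.603 and 0.225. At an unadjusted p under 0.05 there were 4, 4 and 6 genes, which is 9.30%, 9.30% and 14.0% of the 43, beside 5.59%, 7.56% and 9.83% of all spots. The median ratio of the 43 was 0.08, -0.01 and -0.02. In each group the 2 genes with the smallest p are named below with their values, and any others that reached an unadjusted p under 0.05 were named after their values were seen.

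**Figure D4:**
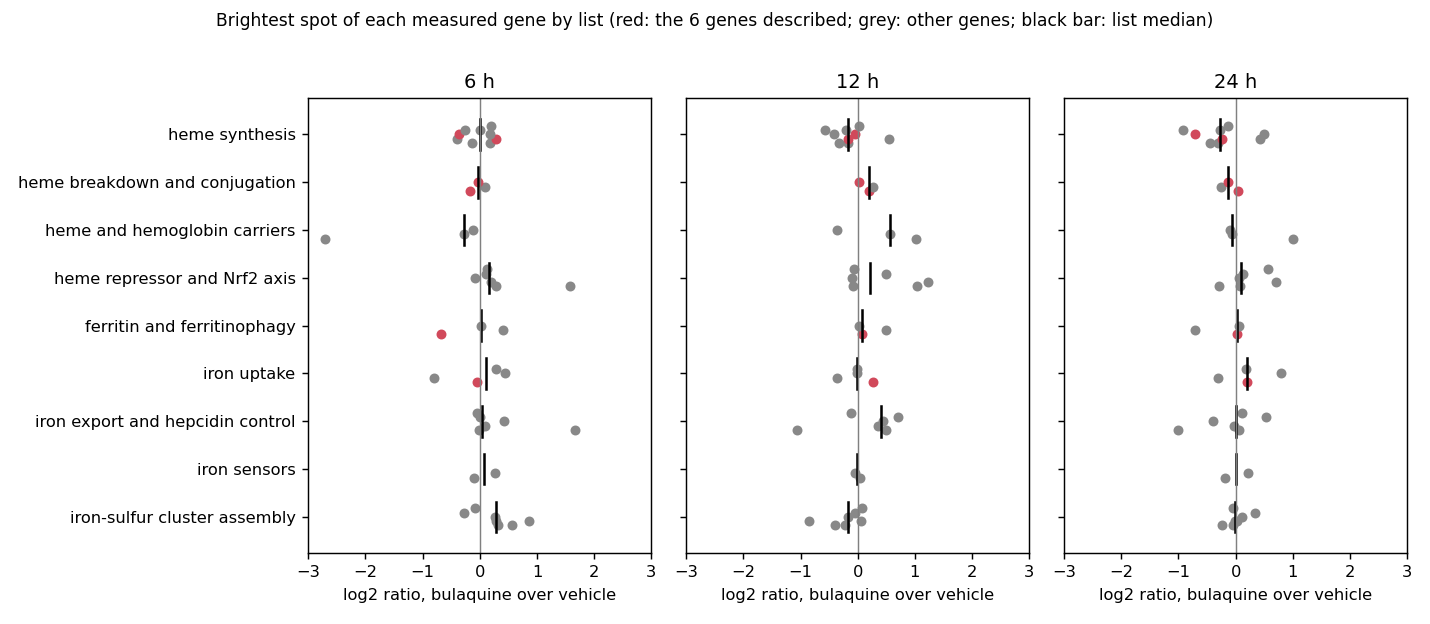
Fitted log2 ratio of bulaquine over vehicle (horizontal axis) for the brightest spot of each of the 43 measured genes in 9 lists at 6 h, 12 h and 24 h, with the 6 genes described above in red and the list median as a black bar. List medians stay between -0.28 and 0.56, and the points far from 0 include Flvcr1, a dim spot at -2.71 at 6 h.

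Of 11 heme synthesis genes 9 were measured, and 5, 7 and 7 of them lay below 0 at 6 h, 12 h and 24 h, with medians of 0.00, -0.17 and -0.28. At 24 h 3 had an unadjusted p under 0.05 as lower, namely Alad, Alas1 and Abcb10, and Slc25a38, a mitochondrial glycine carrier gene, had one as higher (0.50), where 9.83% of all spots had one in either direction and 4.99% as lower. Alas1, the rate-limiting enzyme of heme synthesis in liver, read -0.14, -0.33 and -0.32 at 6 h, 12 h and 24 h (SE 0.14), with adjusted p of 0.660 at 12 h and 0.504 at 24 h. Its arrays split by dye at 24 h, at -0.76 and -1.06 on F1 and F2 against 0.36 and 0.19 on R1 and R2. Its dye effect was -0.62, which the fit takes off. Abcb10 is a mitochondrial transporter needed for heme synthesis in red cell precursors. It read -0.48, -0.28, -0.26 and -0.11 on the 4 arrays of 24 h, all below 0. That held for 8.16% of the spots measured on those 4 arrays. Its fitted ratio was -0.28 (SE 0.11, adjusted p = 0.469, limma). The other Abcb10 spot did not show this, with fitted ratios of 0.11, -0.10 and -0.003 at 6 h, 12 h and 24 h (SE 0.20).

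Of 6 genes of heme breakdown and conjugation 3 were measured, Hmox1, Blvra and Blvrb, with list medians of -0.04, 0.20 and -0.13 at 6 h, 12 h and 24 h. Blvra, the main biliverdin reductase, read 0.08, 0.26 and -0.26. Among heme carriers, 3 of 7 were measured. The heme exporter gene Flvcr1 read -2.71 at 6 h on 3 arrays (SE 0.98, adjusted p = 0.825), but only -0.28 without background correction, and its spot was at the 19.6th percentile of brightness. Abcb6, a porphyrin transporter gene, read -0.11, -0.36 and -0.11.

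The group around the heme-binding repressor Bach1 and its rival Nrf2, which both act on Hmox1, had 6 of 11 genes measured and medians of 0.16, 0.21 and 0.10. Txnrd1, thioredoxin reductase and an Nrf2 target, read 0.67, 0.88, 0.32 and 0.42 on the 4 arrays of 24 h, all above 0. That held for 6.28% of the spots measured on those 4 arrays. Its fitted ratio was 0.57 (SE 0.18, unadjusted p = 0.011, adjusted p = 0.376, limma). It was 0.13 at 6 h and -0.07 at 12 h, and its 24 h ratio was 0.27 with normexp background correction. Mafg, a partner of both factors, read 0.19, 1.23 and 0.71 (SE 0.62). Its 12 h arrays were widely spread, at -0.59, 4.02, 0.93 and 0.56 on F1, F2, R1 and R2.

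Beside Ftl1, the ferritin group had Ncoa4, the receptor that sends ferritin to lysosomes, at 0.40, 0.49 and -0.71, and Pcbp2, an iron chaperone gene, at 0.02, 0.01 and 0.06. In the iron uptake group 4 of 7 genes were measured. Trf, the plasma iron carrier transferrin, read -2.50, -2.79, 0.94 and 1.14 on arrays F1, F2, R1 and R2 of 6 h, split by dye. Its dye effect was -1.83, which the fit takes off. Its fitted 6 h ratio was -0.80 (SE 0.20, unadjusted p = 0.0024, adjusted p = 0.476), and a second Trf spot read -0.67. Slc11a2, which carries iron out of endosomes, read 2.07, 0.62, -0.08 and 0.60 at 24 h with a fitted ratio of 0.80 (adjusted p = 0.444), while its other spot read -0.18.

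Iron export and hepcidin control had 6 of 11 genes measured and a median of 0.40 at 12 h, beside 0.04 at 6 h and 0.01 at 24 h. At 12 h 3 of the 6 had an unadjusted p under 0.05, all higher, where 7.56% of all spots reached that level in either direction and 4.17% as higher. Slc40a1, the iron exporter ferroportin, read 0.50 (SE 0.18, adjusted p = 0.603), and 3 of its 4 arrays lay above 0. Cp, the ferroxidase ceruloplasmin, read 0.34, 0.30, 0.45 and 0.37 on the 4 arrays with a fitted ratio of 0.36 (SE 0.14, adjusted p = 0.629). Hfe, a regulator of hepcidin, read 0.70.

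Of the iron sensors Aco1 and Fbxl5 were measured. Aco1, the iron regulatory protein that binds ferritin and Tfrc mRNA, read -0.10, 0.03 and -0.18 at 6 h, 12 h and 24 h. Fbxl5, which marks a relative of Aco1 for degradation, read 0.26, -0.05 and 0.21. The other Fbxl5 spot read -0.01, 0.12 and 0.05 at these times. Iron-sulfur cluster assembly had 7 of 11 genes measured and medians of 0.29, -0.17 and -0.02. Fdx1, a ferredoxin, read 0.27, 0.25, 0.32 and 0.42 on the 4 arrays of 6 h (fitted 0.31, adjusted p = 0.845), and Iscu, the scaffold of the assembly, read 0.57, -0.39 and -0.25.

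Red cell transcripts were measured beside these genes. The 20 spots that list globin genes had a median of -0.25 at 6 h, 1.62 at 12 h and 0.20 at 24 h. At 12 h 13 of the 20 passed the test, against 0.254% of all spots. These calls depended on the processing. With normexp background correction, and with 12 h fitted alone, 0 spots of the whole array passed at 12 h. The 7 of the 20 that list globin genes alone had a median of 1.54 at 12 h, and 2 of the 7 passed. Of 15 erythroid markers 3 were measured, Alas2 (0.55 at 12 h), Car1 (0.44) and Car2 (0.22), with a summed level at 12 h of 1299 to 4628 units after bulaquine and 2171 to 2916 units with vehicle. None of these 3 passed. The 12 spots of the heme and iron genes had a median of 0.03 at that time. Of 5 endothelial markers 2 were measured, Pecam1 at -0.05 and Kdr at 0.00 at 12 h.

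The spots whose ratio over the arrays was most like each gene's, by Pearson r over at least 10 arrays, are given as a description of likeness alone. For Ftl1 they were Hsp90aa1 (0.98), Gstm2 (0.96) and Hpn (0.95), and 59 spots had an r over 0.9. For Alad they were Tbc1d20 (0.94), Mtmr7 (0.94) and Nifk (0.93), with 20 spots over 0.9. For Tfrc they were Meg3 (0.95), Golph3 (0.92) and Hs1bp3 (0.92), and for Blvrb Cst3 (0.95), Adamts19 (0.92) and Abraxas1 (0.92). For Fech they were Mtss1 (0.92), A230075M04Rik (0.88) and Myo9b (0.87). For Hmox1 they were Oaz2 (0.89), Herc4 (0.88) and Wasf2 (0.85), with 0 spots over 0.9. The spots named beside Ftl1, Alad, Tfrc, Fech and Blvrb had dye effects of the same sign as the gene they resembled. Beside Hmox1 (-0.10) only Wasf2 (0.13) had a dye effect of the opposite sign. All these points share arrays and dye.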

How the data were processed

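RNA from mouse liver was compared on 12 two-colour spotted arrays, grouped by time from the sample titles, with dyes taken from the labels. The series' design text names ImageQuant v5.0 for scanning, ArrayVision v8.0 for extraction and Avadis v4 for LOWESS-normalized log ratios. The authors' deposited intensity columns hold foreground, background and corrected intensity per dye. The deposited signal-to-noise score is per channel, with no formula stated here. The authors' deposited log2 ratios correlated with the ratios computed here at r of 0.998 to 1.000, and were used as an alternative. Their scale is log2(Cy5/Cy3), and their column medians were -0.01 to 0.04.

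Corrected intensities of 0 were set to missing, and log2 ratios were normalised by global loess within arrays, turned to drug over vehicle and fitted with limma 3.58.1 in R 4.3.3. The fit had 1 coefficient per time, a dye effect per spot and all 12 arrays (8 residual degrees of freedom, 9.62 after eBayes), for spots above 0 in both dyes on at least 10 arrays. Where a spot was missing on an array, that array was dropped for that spot. P-values were adjusted by Benjamini-Hochberg over 17322 spots, and the procedure was tested on simulated data. Levels per channel are after loess and Aquantile normalization and remain open to dye bias. Blocks of 480 spots were reordered on a grid of 12 rows by 4 columns to pair spots with annotation. No spot of a listed gene named a further symbol. Symbols came from the array annotation and a RefSeq gene table.

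The members and lists were chosen with earlier results of these data known. Named beyond the members were, per list, the 2 genes with the smallest p, each by its brightest spot, and the 3 most alike spots. Slc25a38, Hfe and Ftl1-ps2 were named after their values were seen. The F1, F2, R1 and R2 numbers were not taken to pair arrays. Deviations from the fit of same-named arrays at different times correlated at -0.219 to -0.0771. Those of F and R arrays with the same number at the same time correlated at -0.386 to -0.183. Taking off time means and the dye effect by itself pulls such values below 0, so they cannot decide whether arrays were paired. Alternatives were background correction, normalization, filters, dye and block terms, averaging of spots, and each array left out.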

Additional observations from a re-analysis of the deposited data

Results flagged for a closer look

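Within a time point, the farthest of 4 arrays was set against the rest by Dixon's test for 84 groups of 4 arrays, and chance marks about 1 group in 20. It marked 2. At 6 h the Fech spot 1702 read 0.633 on array F2, and the gap to the nearest other array was 0.856 of the range of the 4. That ratio still held the dye effect. With the dye effect taken off, the spot read 0.36 on F2, beside -0.07, 0.41 and 0.46 on F1, R1 and R2, so F2 was no longer the farthest array. Blvra, a biliverdin reductase gene, read -0.838 on array R1 of 6 h, with a gap of 0.838 of the range, where the other 3 arrays lay above 0. The Blvra ratio also still held its dye effect (0.22). Dixon's test was not repeated with the dye effect taken off, so this mark may not hold without it.

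In 2 genes every measured array of 12 h moved one way and every measured array of 6 h the other way. The share of all spots that did the same was not counted, so these 2 are not set against chance. For the heme exporter gene Flvcr1 the difference of 12 h from 6 h was 3.73 (SE 1.36, adjusted p = 0.733, limma), with 3 arrays above 0 at 12 h and 3 below 0 at 6 h on a dim spot. For the ferredoxin gene Fdx1 it was -0.53 (SE 0.17, adjusted p = 0.643), with 4 arrays below 0 at 12 h and 4 above 0 at 6 h. Neither difference passed the test.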

How the results depend on the processing

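With no background correction 1 of the 12 spots passed at 6 h (Ftl1 spot 5026, -0.63), 1 at 24 h (Alad, -0.50) and 1 for 24 h against 6 h (Ftl1 spot 5026, 0.75), and the cause was not tested. In every other alternative run, and in 12 fits with 1 array left out (lowest 0, highest 0), none passed. Over all spots the alternatives gave 0 to 29 calls at 6 h (6 as reported), 0 to 77 at 12 h (44) and 0 to 169 at 24 h (39), and leaving out 1 array gave 1 to 3, 23 to 54 and 0 to 31, with 0 at 24 h without its array F2. For 12 h against 6 h, 24 h against 6 h and 24 h against 12 h the alternatives gave 0 to 69 (32), 0 to 88 (2) and 0 to 90 (6), and leaving out 1 array 7 to 29, 0 to 14 and 0 to 8. Without background correction 18 of 29 calls at 6 h were lower, against 1 of 6. With the replicate block of the array label, 1, 25 and 14 spots were called at 6 h, 12 h and 24 h, and 0 of the 12. With all arrays kept, Ftl1 spot 5026 lay between -0.68 and -0.46 at 6 h and Alad between -0.72 and -0.50 at 24 h, and with 1 array left out between -0.76 and -0.58 and between -0.83 and -0.51. Hmox1 changed sign at 6 h without array R2 of 6 h (0.14) and at 24 h without array R2 of 24 h (-0.14). Signal over background limits dim spots such as Tfrc spot 9774 and Flvcr1, which were at 0 on 2 arrays each.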
